A study of Mus musculus with 8 samples.

Results

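The troponins and tropomyosins are the regulatory proteins of the thin filament of the sarcomere, and their transcripts were followed here in single myocardial cells of the mouse heart tube. The genes were chosen by name: Tnnt1, Tnnt2, Tnni1, Tnni3, Tnnc1, Tpm1, Tpm2, Tpm3 and Tpm4. These 9 of the 35715 gene names on the array had 17 probes among the 55681 gene probes of the array, and every one of the 17 is accounted for. Of these probes, 10 were present, which means well above background in all 4 cells of at least 1 genotype, out of 7460 present probes on the array.

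The cells came from the heart tube of embryos at embryonic day 8.5 with 9 somites, and each Agilent one-colour array held the amplified cDNA of a single cell. The 4 WT cells were Mesp1+/+ with Sox17flox/flox, so they carried the floxed Sox17 alleles but no Cre. The 4 KO cells were Mesp1Cre/+ with Sox17flox/flox, in which Cre from the Mesp1 locus, active in the early mesoderm that forms the heart, deletes Sox17 in the cardiac lineages. Cre, the altered Mesp1 allele and the loss of Sox17 cannot be told apart in this design. The comparison asks how the transcripts of myocardial cells differ when Sox17, a transcription factor gene that the study placed in the endocardial lineage, is lost from the mesoderm.

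The labels named no embryo for any cell, so each genotype counted as 1 sample of 4 cells, no test was made, and the SD is the spread between cells (n = 4 for each genotype). The WT arrays shared 1 slide and the KO arrays another, and the effects of slide and genotype cannot be told apart. Between 17.1% and 26.0% of the probes were detected per cell. Of 12 myocardial marker genes, 11 to 12 were detected in every WT cell and in every KO cell, with summed log2 signals of 165 to 178 in WT and 172 to 184 in KO cells. Of 11 endothelial and endocardial markers, 2 to 4 were detected per WT cell and 2 to 3 per KO cell, with summed log2 signals of 65.5 to 72.1 in WT and 65.4 to 71.3 in KO cells. Among these, Cdh5, Tek, Nfatc1, Emcn, Esam and Cldn5 were detected in 0 of the 8 cells. Kdr was detected in all 4 WT and all 4 KO cells, at mean log2 signals of 9.18 and 9.09. Plvap was also detected in every cell, but near the floor, at 5.71 in WT and 5.95 in KO. Pecam1 was detected in 2 WT and 2 KO cells, with mean signals at the floor. Egfl7 was detected in 1 WT and 1 KO cell, and Tie1 in 1 WT cell. Smooth muscle markers other than Myh11 were detected in every cell (4 of 5 genes), as the early myocardium is known to use several of them. Of these, 1 was at least 5-fold lower in KO and 0 were at least 5-fold higher. The lower one was Smtn, at mean log2 signals of 8.49 in WT and 5.82, near the floor, in KO. The 5 skeletal muscle regulators were detected in 0 cells, and at most 1 of 7 erythroid and 1 of 7 endoderm markers was detected in any cell. These were Hba-a1, in 0 WT and 3 KO cells, and Ttr, in 2 WT and 0 KO cells, both with mean signals at the floor.

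Contraction of striated muscle is switched on by calcium at the thin filament. Tropomyosin is a coiled coil of paired chains that lies along the actin filament, and the troponin complex sits on it. Troponin C binds calcium, troponin I holds the filament in the off state, and troponin T ties the complex to tropomyosin. The embryonic heart is known to use the cardiac troponin T gene Tnnt2, the slow skeletal troponin I gene Tnni1 before the cardiac form Tnni3 replaces it, and Tnnc1, which it shares with slow skeletal muscle. Of the tropomyosins, Tpm1 supplies the main striated muscle chain of the mouse heart, whereas Tpm3 and Tpm4 are widely used in the cytoskeleton of many cell types.

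The cardiac set of transcripts was bright in both genotypes, whereas Tpm3, Tpm4 and Tnnt1 were at the floor in some cells and bright in others. Tnnt2, Tnni1, Tnni3, Tnnc1 and Tpm1 were detected in all 8 cells. By the main probes, every WT cell had detected signal of Tpm3 and Tpm4, against 2 and 3 of the 4 KO cells. Means of log2 signal were 11.5-fold and 15.1-fold lower in KO, sizes that rest on 2 KO cells of each gene set to the floor of 50, and without KO cell 1 or KO cell 3 the Tpm3 difference was under 5-fold. Tpm1 was 1.69-fold higher in KO with no overlap between the genotypes, though they overlapped with scaling on all probes or quantile normalization. Tnnt1 varied from the floor to a high signal within each genotype, and Tpm2 lay at or near the floor in most cells.

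**Figure D1:**
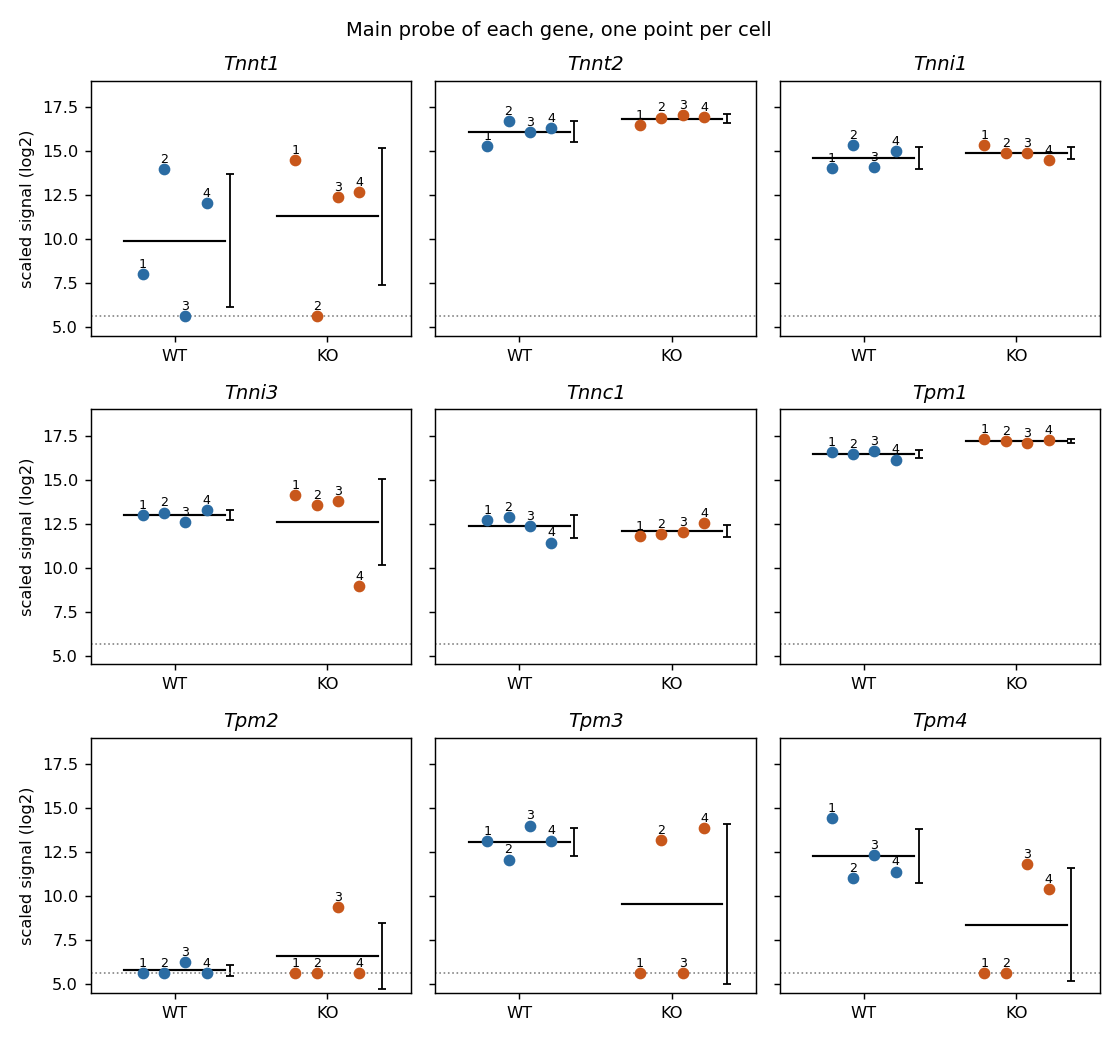
Scaled signal (log2) of the main probe of each of the 9 genes, with 1 point per cell numbered 1 to 4 for WT (blue) and KO (orange), a line at the mean of each genotype, a bar of ± 1 SD between cells beside it and the floor of 50 (5.64) as a dotted line. Tpm1 separates by genotype, 2 KO cells each of Tpm3 and Tpm4 lie at the floor, and KO cell 4 of Tnni3 lies far under the rest.

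**Figure D2:**
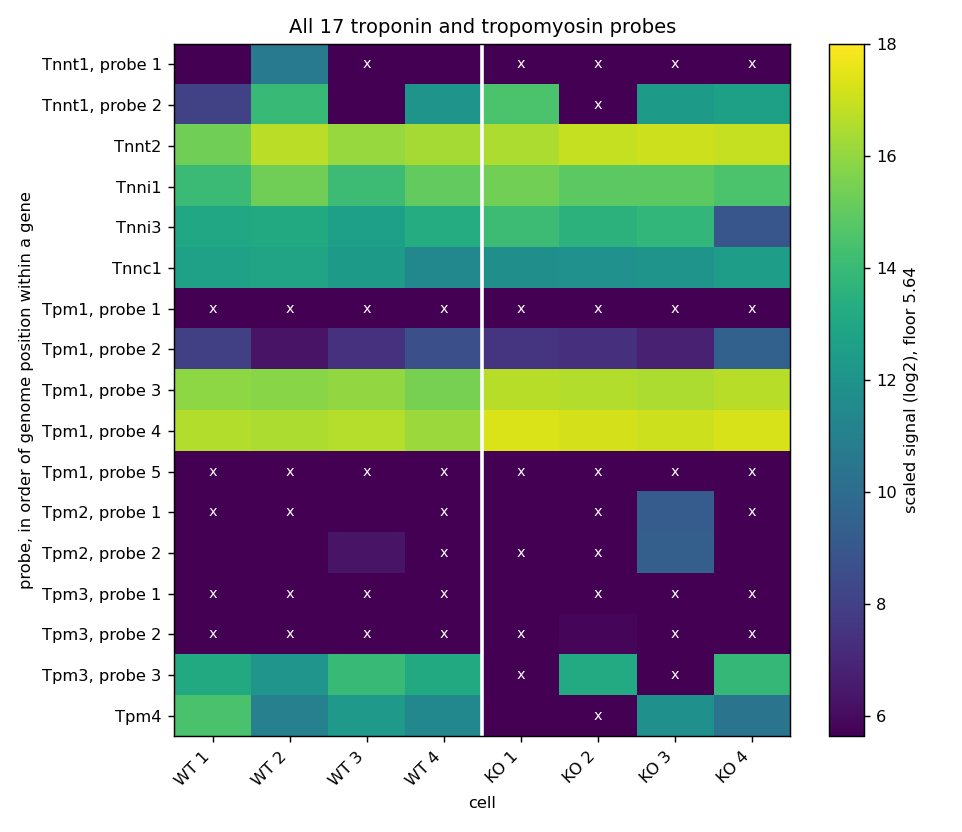
Scaled signal (log2, colour scale from the floor of 5.64) of all 17 member probes in rows, in order of genome position within a gene, and of the 4 WT and 4 KO cells in columns, with a cross where a probe was not well above background. The Tnnt2, Tnni1, Tnni3 and Tnnc1 probes and 3 of the 5 Tpm1 probes have no cross in any cell, and both Tpm2 rows and the first 2 Tpm3 rows are at or near the floor in most cells.

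Signals are given on the array's own scale after each array was scaled to a common level, and values under 50 were set to a floor of 50, which is 5.64 on the log2 scale. A probe's level can be compared between cells but not with the level of another probe, since probes bind with different strength. The cardiac probes are printed 5′ to 3′ because they are the sequences through which the 8-cell detection was read.
Tnnt2: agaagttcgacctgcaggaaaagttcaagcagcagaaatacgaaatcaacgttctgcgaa
Tnni1: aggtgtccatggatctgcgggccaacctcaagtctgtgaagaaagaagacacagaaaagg
Tnni3: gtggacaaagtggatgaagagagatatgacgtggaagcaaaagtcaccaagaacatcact
Tnnc1: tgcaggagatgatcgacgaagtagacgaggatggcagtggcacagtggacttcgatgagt
The files placed the Tnni1 probe on chromosome 1 at 137705328 to 137705387, plus strand, and the Tnni3 probe on chromosome 7 at 4472043 to 4472102, minus strand, in mouse build mm9. They gave no position for the Tnnt2 and Tnnc1 probes, and exon and UTR annotation was not used here.

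Tnnt2, the cardiac troponin T, was bright in every cell. Its WT signals, in the order of cells 1 to 4 that is kept for every list of values, were 40833, 109808, 70152 and 81926, and its KO signals were 92297, 124153, 136988 and 125094. WT cell 1 was the lowest and 3 KO cells the highest, but WT cell 2 lay above KO cell 1, so the genotypes overlapped. The mean log2 signal was 16.12 ± 0.60 in WT and 16.85 ± 0.25 in KO, a difference of 0.73 or 1.66-fold. The difference exceeded the SD of either genotype. Over the 5300 probes with signal above background in every cell the median difference was 0.15, and 80.6% of these probes had a lower difference than Tnnt2. On the scale of that median, Tnnt2 was 0.58 higher in KO. This value was 0.11 with quantile normalization and 0.17 without WT cell 1.

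Tnnt1, the slow skeletal troponin T, had a different pattern, in that it was bright in some cells of each genotype and at the floor in others. Its brighter probe lay on chromosome 7 at 4456265 to 4456324, minus strand (mm9). The WT signals were 261, 16315, the floor and 4236, and the KO signals were 23512, the floor, 5333 and 6505. WT cell 3 and KO cell 2 were at the floor, and WT cell 3 was nevertheless called well above background by the scanner software. On the log2 scale the mean was 9.93 ± 3.79 for WT and 11.30 ± 3.89 for KO, so the difference of 1.37 was well within the spread between cells. Without WT cell 3 the difference was -0.05, and without KO cell 2 it was 3.26.

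A second Tnnt1 probe, 33 bases further along the transcript at 4456172 to 4456231, gave a signal above the floor in 1 cell only, WT cell 2, at 1780, though the software called it well above background in 3 WT cells and 0 KO cells. WT cell 2 was also the brightest WT cell of the first probe, whereas KO cell 1, the brightest cell of all for the first probe, was at the floor here. A stretch of each probe is shown 5′ to 3′, with the polyadenylation signal letters AATAAA in capitals. The downstream probe also holds signal letters, ATTAAA from base 41, which lie outside the stretch shown.
Tnnt1 upstream probe, bases 25 to 54: tctgtaactcaaAATAAAgtgcccccaggc
Tnnt1 downstream probe, bases 1 to 30: atcgacatctccatactgcctgggagagcc
The downstream probe began 51 bases after the end of the AATAAA of the upstream probe. The cDNA of these cells was primed with oligo(dT) at the 3′ end of the transcripts, so the position of a probe relative to the transcript's end bears on its signal, and the ends used in these cells were not measured.

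Both troponin I genes were detected in every cell. The WT signals of Tnni1 were 17200, 41434, 17737 and 32947, and its KO signals were 41734, 30647, 30726 and 23024. The genotypes overlapped over most of their range. The mean log2 signal was 14.63 ± 0.64 in WT and 14.91 ± 0.35 in KO, a difference of 0.28, and 0.13 relative to the median probe. With scaling on the 50th percentile of all probes the sign of the Tnni1 difference turned, to -0.071.

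Tnni3, the cardiac troponin I, had WT signals of 8172, 9007, 6203 and 10069. Its KO signals were 17789, 12121, 14410 and 495. KO cells 1 to 3 lay above every WT cell and KO cell 4 lay below every WT cell. The mean fell from 13.01 ± 0.30 to 12.61 ± 2.45 on the log2 scale, a difference of -0.40 that rested on KO cell 4. Without that cell the difference was 0.83, and between the medians of the genotypes it was 0.62. KO cell 4 also had the lowest Tnni1 signal of the KO cells, but its Tnnt2 signal of 125094, its Tpm1 signal of 155103 and its Tnnc1 signal of 6018 were within or above the range of the other KO cells. The balance of the troponin I genes showed this cell apart, since the log2 difference of Tnni3 minus Tnni1, centred on its mean over the 8 cells, was -3.58 in KO cell 4 and between -0.24 and 0.89 in the other cells.

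Tnnc1, the calcium binding subunit, had WT signals of 6817, 7477, 5352 and 2760 and KO signals of 3580, 3827, 4177 and 6018. WT cell 4 was the lowest cell of all, and the genotypes overlapped. The mean log2 signal was 12.35 ± 0.65 in WT and 12.07 ± 0.33 in KO. The difference of -0.28 was smaller than the SD of either genotype. Tnnc1 lay 0.44 below the median probe, and 20.7% of the probes detected in all cells had a lower difference.

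The spread between cells was small for most of the cardiac troponins. The pooled SD was 0.46 for Tnnt2, 0.52 for Tnni1 and 0.52 for Tnnc1, against a median of 0.83 over the 3104 probes that never fell to the floor and were detected in every cell. Only 8.47%, 13.4% and 13.7% of those probes had a smaller spread, in that order. Tnni3 was at the other end with a pooled SD of 1.75, and 91.8% of those probes had a smaller one.

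Tpm1 had 5 probes, spread over chromosome 9 on the minus strand in mm9, and they gave very different readings in the same cells. Tpm1 is known to be spliced and ended in several ways, and the array's design assigned its probes to different RefSeq variants. The probes are listed in the order of transcription, with 30 bases of each and with polyadenylation signal letters (AATAAA or ATTAAA) in capitals.
Tpm1 probe at 66880274 to 66880333, bases 1 to 30: ggaagaacagttaagaataatggatcagac
Tpm1 probe at 66875796 to 66875855, bases 1 to 30: ccttagggccaggcacagactgctttctat
Tpm1 probe at 66875782 to 66875841, bases 31 to 60: tcgcccagtgtaaAATAAAcactgtacgct
Tpm1 probe at 66872131 to 66872190, bases 31 to 60: ttgtatagcttcATTAAAtcctcaataacc
Tpm1 probe at 66871166 to 66871225, bases 1 to 30: gaaaaccttagtatgcaccagatgctggat

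The pair at 66875782 and 66875796 share 46 of their 60 bases, so they are close to a repeat reading of the same sequence and do not count as separate evidence. The brighter of them, used as the main probe of Tpm1, gave WT signals of 97302, 89900, 102093 and 72703 and KO signals of 162656, 152523, 138111 and 155103. Every KO cell lay above every WT cell. The mean log2 signal was 16.45 ± 0.22 in WT and 17.21 ± 0.10 in KO, a difference of 0.76 or 1.69-fold, which exceeded the SD of both genotypes. It stayed between 0.66 and 0.82 when each cell was left out in turn. The overlapping probe gave WT signals of 61400, 57685, 66343 and 45188 and KO signals of 105805, 96294, 90624 and 103650, with a difference of 0.79 or 1.73-fold and again no overlap.

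These 2 probes were the members whose KO cells all lay above all WT cells, 2 of 10 present member probes. Over the array 3.26% of the present probes did so, and 4.91% of the 346 probes detected in all cells with a mean log2 signal of at least 15, a level set after the values were seen. The median difference of those 346 bright probes was 0.09. Relative to the median of all probes detected in every cell, Tpm1 was 0.60 and 0.64 higher in KO by the main and the overlapping probe. With quantile normalization these relative values were 0.13 and 0.23. The 11 present genes of the myocardial marker list had a median difference of 0.88, so the Tpm1 difference of 0.76 and the Tnnt2 difference of 0.73 were smaller than this median. The separation depended on the scaling: with scaling on the 50th percentile of all probes the difference was 0.41, with quantile normalization 0.45, and under both the genotypes overlapped. The probes were also among the steadiest, with pooled SDs of 0.17 and 0.18, and 0.0966% and 0.193% of the 3104 probes above the floor had a smaller spread.

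**Figure D3:**
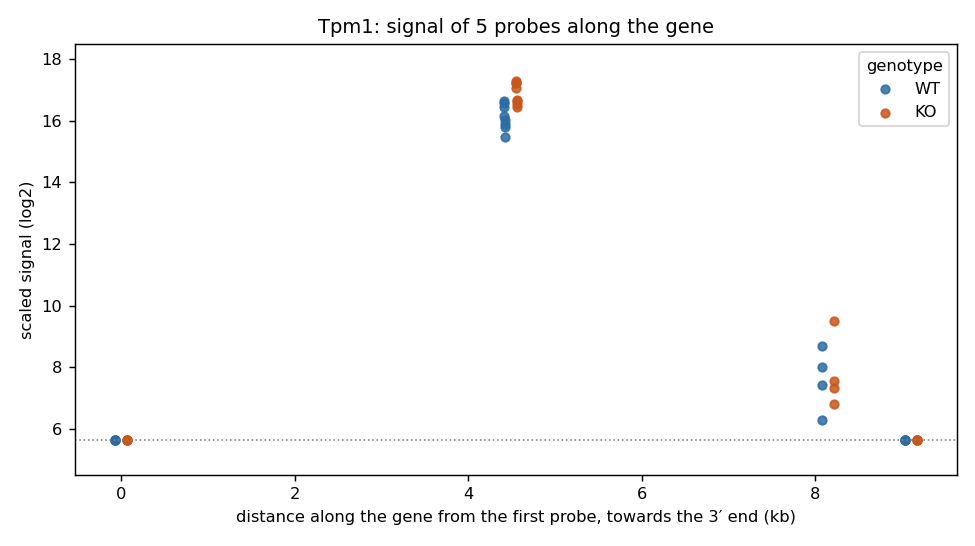
Scaled signal (log2) of the 5 Tpm1 probes against their distance in kb from the first probe towards the 3′ end of the gene, with 1 point per cell for WT (blue) and KO (orange, shifted sideways for view) and the floor as a dotted line. The overlapping pair in the middle is bright in every cell, the next probe is dim with overlapping genotypes, and the outer probes lie at the floor in all cells.

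The other Tpm1 probes carried no such difference. The probe at 66872131, which lies 3591 bases beyond the bright pair, was dim but detected in every cell, with WT signals of 254, 78.6, 171 and 411 and KO signals of 186, 159, 111 and 724. The genotypes overlapped, with 7.60 ± 1.01 in WT and 7.79 ± 1.18 in KO, a difference of 0.19. The outermost probes, at 66871166 and 66880274, were detected in 0 of 8 cells. Averaged over its 5 probes, Tpm1 differed by 0.35. A further probe between these positions, at 66876655 to 66876714 on the same strand, was named on the array by an EST cluster (TC1657454) and not by the gene, so it was outside the rule. It was above the floor in WT cells 3 and 4, at 1145 and 278, and in KO cell 2, at 10752.

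Tpm2, another tropomyosin gene of muscle, was near the floor. Its probe at 43532262 to 43532321 on chromosome 4, minus strand, was above the floor in WT cell 3, at 77.3, and in KO cell 3, at 674, and its probe at 43531276 to 43531335 was above the floor in KO cell 3 alone, at 597. Both probes therefore gave KO cell 3 as the brightest. The difference of the first probe was 0.78 and became -0.16 without KO cell 3, so it gave no direction for the genotype.

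Tpm3 gave the first of the large differences. The probe that carried the signal lay on chromosome 3 at 89904428 to 89904487, plus strand (mm9), and began 5′ to 3′ as printed here.
Tpm3, bases 1 to 30: tgccatctcattgtgctttgtatcagtcag
Its WT signals were 9045, 4340, 16583 and 9152. Its KO signals were the floor, 9262, the floor and 14846. KO cells 2 and 4 were within the WT range, and KO cells 1 and 3 were not detected. The mean log2 signal was 13.10 ± 0.79 in WT and 9.58 ± 4.55 in KO, a difference of -3.52 or 11.5-fold, less than the KO spread and set in size partly by the floor. Leaving out KO cell 1 or KO cell 3 gave -2.21, under the 5-fold level. The 2 other Tpm3 probes, at 89877669 to 89877728 and 89892985 to 89893044, were each detected in 0 WT cells and 1 KO cell, and only KO cell 2 of the latter rose above the floor, at 58.9. The array's design assigned these 2 probes to the variant Tpm3.12 and the probe with the signal to Tpm3.1. The difference of -3.52 was therefore read on Tpm3.1 and not on Tpm3.12. The mean over the 3 probes, which includes these 2 at or near the floor, differed by -1.15.

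Tpm4 was read by 1 probe, on chromosome 8 at 74676891 to 74676950, plus strand (mm9). Its WT signals were 22199, 2067, 5213 and 2701. In KO cells it was the floor in cells 1 and 2, 3670 in cell 3 and 1345 in cell 4. KO cell 3 lay within the WT range, KO cell 4 lay just below the lowest WT cell, and KO cell 1 was called well above background although its value was under the floor. The mean log2 signal was 12.30 ± 1.53 in WT and 8.38 ± 3.21 in KO, a difference of -3.92 or 15.1-fold, larger than the SD of either genotype and set in size partly by the floor. Without KO cell 1 the difference was -3.01, and without KO cell 3 it was -5.07 with no overlap between the genotypes. The study selected Tpm4 as a lower gene on these same arrays, so its direction here is no independent evidence.

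The Tpm4 probe shares a run of 26 bases with the probe of LOC102633627, which the array's design describes as a predicted Tpm4 pseudogene, on chromosome 17 at 22103215 to 22103274, minus strand (mm9). The shared run is in capitals.
Tpm4, bases 12 to 41: tcACACTACCAGGGAGATGAACTTTGAGca
LOC102633627, bases 2 to 31: taACACTACCAGGGAGATGAACTTTGAGta
That probe gave WT signals of 10010, 1757, 4381 and 2188 and KO signals of the floor, the floor, 1849 and 638, with the cells of each genotype in the same order as for Tpm4. Pearson's r of the log2 signals of these probes was 0.992 over the 8 cells, as a description. The signals of Tpm4 and of this near copy can therefore not be told apart, and the second probe is no separate evidence for either.

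**Figure D4:**
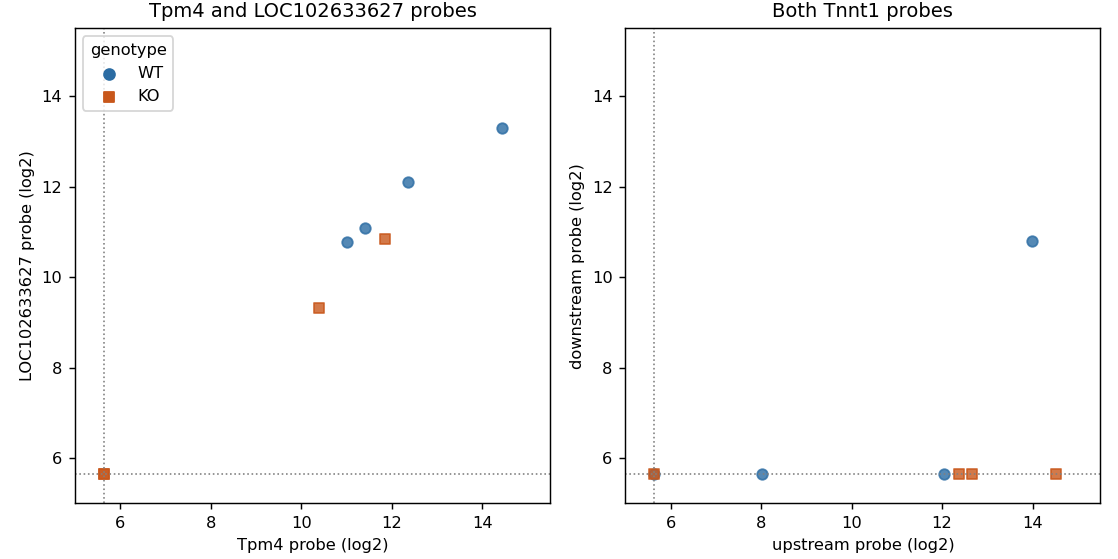
Scaled signal (log2) of paired probes, with 1 point per cell for WT (circles) and KO (squares) and the floor as dotted lines, for Tpm4 against LOC102633627 on the left and for the upstream against the downstream Tnnt1 probe on the right. The Tpm4 and LOC102633627 signals follow each other closely, with KO cells 1 and 2 both at the floor, whereas the downstream Tnnt1 probe is above the floor in WT cell 2 alone.

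Tpm3 and Tpm4 were at the floor in KO cells that only partly coincided. KO cell 1 was at the floor for both, KO cell 2 for Tpm4 only, KO cell 3 for Tpm3 only and KO cell 4 for neither. Tpm1 lay above every WT cell in every KO cell, KO cell 4 included. The log2 difference of Tpm1 minus Tpm4, centred on its mean over the 8 cells, was 5.17 and 5.08 in KO cells 1 and 2. It lay between -4.36 and 0.36 in the others. Tpm1 minus Tpm3 was 6.18 and 5.94 in KO cells 1 and 3 and between -2.87 and -1.12 in the others. These values contain signals at the floor, so the high ones restate which KO cells were at the floor for Tpm4 or Tpm3.

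Set against the whole array, 2 of the 10 present member probes (Tpm3 and Tpm4) were at least 5-fold lower in KO, and 6.89% of all present probes were. None of the 10 was at least 5-fold higher, against 1.74% of all present probes. No member probe had all KO cells below all WT cells (0 of 10), which held for 2.25% of the present probes. The Tpm3 and Tpm4 probes were present through the WT cells alone, the genotype in which they were high, and among the member probes detected in all 8 cells 0 were at least 5-fold lower. With 10 probes, a count of 2 is a small number to set against these shares, and nothing about the members as a group is read from it.

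**Figure D5:**
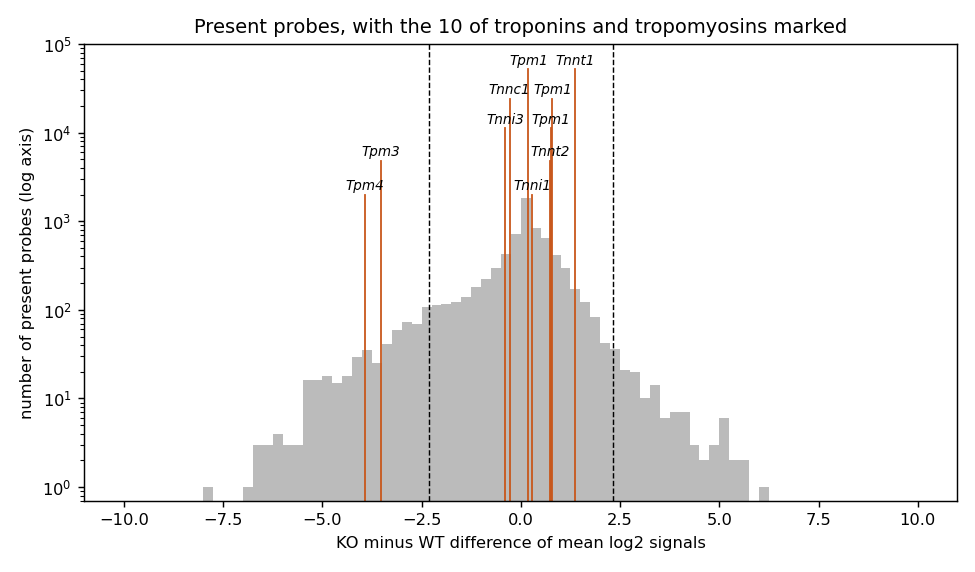
Number of present probes, on a log axis, by KO minus WT difference of the mean log2 signal in bins of 0.25 (grey), with orange lines, whose heights only carry the names, at the 10 present member probes and dashed lines at the 5-fold level of 2.32 in each direction. The Tpm3 and Tpm4 probes lie beyond the lower dashed line at -3.52 and -3.92, and the other 8 lie between the dashed lines.

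The loss of a bright signal in single KO cells was counted for all probes of at least 2000 in all 4 WT cells. This level was chosen after the values were seen and lies just under the lowest WT signal of Tpm4, 2067, so the place of Tpm3 and Tpm4 in the count was fixed by the choice and nothing is read from it. Of 1453 such probes, 3.03% were at the floor in at least 2 KO cells, and 2 of the 8 member probes in this set, those of Tpm3 and Tpm4, were among them. In the other direction, 0.447% of the 1343 probes of at least 2000 in all 4 KO cells were at the floor in at least 2 WT cells, and 0 of 5 member probes were. Among probes of at least 2000 in all 4 cells of the other genotype, the share at the floor differed by cell. It was 3.1%, 3.99% and 3.1% in KO cells 1 to 3 and 0.895% in KO cell 4. In the WT cells it was 0.223% to 1.49%. The share was highest in the 3 KO cells in which Tpm3 or Tpm4 was at the floor. The KO and WT shares come from different sets of probes, and the set for the KO cells includes Tpm3 and Tpm4. The part of such losses in the Tpm3 and Tpm4 values was not tested.

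Over the main probes of the 9 genes, 5 were higher and 4 were lower in KO. Their median difference was 0.28 and their mean was -0.47, of opposite sign because Tpm3 and Tpm4 pull the mean. Over the main probes of all 8521 genes detected in at least 4 cells, the median difference was 0.00, the mean was -0.16, 3889 were higher and 3381 were lower. The rest differed by exactly 0, which arises where all 8 cells lie at the floor. Over the 5300 probes detected in all 8 cells the median was 0.15.

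The other genes listed with the thin filament, among them cytoplasmic actins and actin binding genes, showed no difference past the 5-fold level. Of 22 such genes on the array, 9 were present, and 0 of them were at least 5-fold lower or higher in KO. Their median difference was -0.22. The actins, muscle and cytoplasmic together, had 4 of 5 genes present with a median of 0.02. Their differences ran from -1.12 for a cytoplasmic actin to 0.36 for a muscle actin. The actin binding calponin, caldesmon and transgelin genes had 4 of 6 present with a median of -0.52. Of the 3 fast skeletal troponins, 1 was present, with a difference of -0.93. Its signal was above the floor only in WT cells 2 and 4, at 1210 and 3700, and in KO cell 4, at 6703. The difference therefore gave no direction for the genotype. The 8 tropomodulin, leiomodin and nebulin family genes had 0 present.

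As a description of likeness over the 8 cells, the genes with the highest Pearson's r to each member detected in all cells were listed. The search covered 4863 other named probes detected in all cells. Names of EST clusters, lincRNAs and similar entries were then passed over, so the listed genes came from fewer probes. For Tpm1 they were Col4a4 and Gm29720 (r = 0.948 and 0.934), for Tnnt2 Lrrc2 and Usf2 (0.934 and 0.918), and for Tnni1 Golt1a and Sh3glb2 (0.923 and 0.923). For Tnni3 they were Tmco1 and Nudc (0.935 and 0.925), and for Tnnc1 Gigyf1 and Amotl2 (0.955 and 0.849). The best of so many probes reaches a high r over 8 cells in any case, and the cells of a genotype share a slide.

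The promoters of the 9 genes were read from RefSeq on GRCm38.p6, as 12 windows from 250 bases before to 50 bases after a gene start, because the cardiac members were detected together in every cell. CATTCC, the letters of the muscle M-CAT element bound by TEAD factors, occurred on either strand in 3 of the 12 windows, in Tnnt2, Tpm1 and Tnnc1, and in 14.7% of all 32851 promoter windows. These matches are shown in capitals within 40 bases on the strand of the gene.
Tnnt2, chr1:135836290-135836329, plus strand: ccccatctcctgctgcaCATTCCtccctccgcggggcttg
Tpm1, chr9:67049247-67049286, minus strand: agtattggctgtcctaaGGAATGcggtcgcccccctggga
Tnnc1, chr14:31208237-31208276, plus strand: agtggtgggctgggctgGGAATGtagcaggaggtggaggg
The matches lay 27, 56 and 58 bases before the gene start, in that order. The E-box letters CANNTG were in 12 of 12 windows and in 72.3% of all windows. The GATA letters TGATAA were in 0 of 12 and 9.05%, and the CArG box and the MEF2 site were in 0 of 12 and in 1.63% and 0.557%. TATAAA on the gene's strand was in 1 of 12, that of Tnnt1, and in 8.32%. A match of letters is a description and no measure of binding, and the build of these windows differs from that of the probe positions.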

How the data were processed

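Single-cell cDNA of 4 WT and 4 KO cells was primed with oligo(dT), amplified, transcribed from an added T3 promoter and hybridised to Agilent one-colour arrays by the authors, who identified cell types by PCR of marker genes. The deposited values were background-subtracted intensity values from Feature Extraction 12.0.2.2, with probe positions in mm9. Here, control and outlier spots (146 to 220 per array) were left out, log2 signals were averaged per probe, each array was shifted to a common 50th percentile over the probes detected on all 8 arrays (by -0.76 to 0.68), and values under 50 were then set to 50. The authors state a floor of 50, a 50th percentile per chip with no such restriction and a median per gene. The percentile over all probes was an alternative here, and the median per gene, which cancels in differences, was not applied. No spot was saturated (0 on every array). The number of arrays limits the precision. The call was a 5-fold difference of mean log2 signals, with no test. A gene's main probe was that of the highest mean. All 9 genes and all their probes were named, whereas other thin filament genes were to be named only past 5-fold. The members, lists and alternatives were chosen with earlier results of these data known. Normexp background correction (limma 3.58.1), other scalings, floors and probe rules, and leaving out each cell, were alternatives. Calculations used Python 3.11.15 with numpy 2.4.6 and pandas 2.3.3 and were tested on simulated data.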

Additional observations from a re-analysis of the deposited data

Results flagged for a closer look

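Within each genotype, a cell was singled out where its gap to the nearest other cell, divided by the range of the 4 cells, exceeded Dixon's critical value for 4 values. Of 25 groups of 4 cells, 6 did so, and chance flags about 1 in 20 groups. Tnni3 in KO cell 4 reached 0.893. The value was 1 for the downstream Tnnt1 probe in WT cell 2, for the Tpm2 probe at 43531276 in KO cell 3, for the Tpm2 probe at 43532262 in WT cell 3 and in KO cell 3, and for the Tpm3 probe at 89892985 in KO cell 2. A value of 1 arises where the other cells of the genotype all lie at the floor, so these 5 say only that 1 cell was above it.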

How the results depend on the processing

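The count of member probes at least 5-fold lower in KO was 2, fell to 0 among probes detected in all 8 cells, and ranged from 1 to 2 when each cell was left out (1 without KO cell 1 or KO cell 3). The count at least 5-fold higher was 0, but 1 (Tnnt1) with medians of cells or at a 2-fold level, and 0 to 1 with cells left out (1 without WT cell 2 or KO cell 2). The count with all KO cells below was 0, and 0 to 1 with cells left out (1 without KO cell 3). The count with all KO cells above was 2, but 0 with scaling on the 50th percentile of all probes and 0 with quantile normalization. It was 2 to 3 with cells left out. Tnnt2 was the third without WT cell 2 or KO cell 1, and Tnni3 was the third without KO cell 4. The median over the members was 0.28, but -0.071 with scaling on all probes, and -0.16 (without KO cell 3) to 0.71 (without KO cell 4) with cells left out. The cause was not tested. The Tpm1 difference was 0.57 with the 75th percentile. Apart from leaving out cells, Tpm3 ranged from -5.86 with a floor of 1 to -1.15 with the mean of its probes, and Tpm4 from -4.45 with a floor of 1 to -3.53 with normexp. With cells left out Tpm3 ranged from -4.95 to -2.21 and Tpm4 from -5.07 to -3.01. The median of all probes detected in every cell moved from 0.15 to 0.00 with scaling on all probes and to 0.32 with quantile normalization. No paired analysis was possible because the cell numbers name no shared embryo or batch and no result comes from a test. Signals under the floor have no order, so a loss there cannot be sized.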
